A study of Mus musculus with 6 samples.

Results

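The large olfactory receptor (Olfr) gene clusters were followed through a Hi-C contact map of mouse embryonic fibroblasts. They were chosen by position as 21 bins of 1 Mb on mm9, in 9 clusters on 8 chromosomes, out of 2666 bins in the map's position key. On chromosome 2 they were a large cluster at chr2:85000001-90000000 (5 bins) and a small one at chr2:111000001-112000000 (1 bin). The chromosome 7 cluster lay at chr7:110000001-116000000 (6 bins), that of chromosome 9 at chr9:38000001-40000000 (2 bins) and that of chromosome 10 at chr10:129000001-129993255 (1 bin). The remaining clusters were chr14:51000001-52000000 (1 bin), chr16:58000001-60000000 (2 bins), chr17:37000001-38000000 (1 bin) and chr19:12000001-14000000 (2 bins). No measured value entered this choice. All 21 bins held a value, and 13 of them passed the coverage minimum described below.

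Olfactory receptor genes form the largest gene family of mammals and stand in long tandem arrays scattered over many chromosomes. Each olfactory sensory neuron expresses a single receptor gene from a single allele, and in these neurons the silent clusters of different chromosomes are known to gather in shared heterochromatin, while enhancers of the clusters meet across chromosomes at the active gene. Fibroblasts do not depend on the family, which is known to be largely silent outside sensory neurons. The chromosome 7 cluster region is known for the class I, or fish-like, receptors. The H element, an enhancer studied for its contacts across chromosomes in olfactory neurons, lies beside a cluster of chromosome 14; whether the bin analysed here holds it was not checked.

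The strain was a 129xCast hybrid background, and 3 technical replicates were made from each of 2 embryos. Chromatin was crosslinked with formaldehyde, cut with HindIII and ligated in dilution, and joined fragments were sequenced in pairs. The 6 libraries form 1 group, all with the same genotype and no treatment named, and the authors' values are 1 pooled map, so nothing could be compared between libraries or embryos. The file name pairs Cast with 129, and the map was taken to hold contacts between a Cast and a 129 chromosome; the labels do not say so. Under that reading a contact within a chromosome joins homologs. The map gives no expression values, so the labelled cell type could not be checked against marker genes, nor the silence of the receptors against their RNA.

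Each balanced value could be divided into a whole number of contacts and a factor for each of its bins. This held for 100% of 1365118 listed pairs within a tolerance of 0.01 of a contact. Balancing gives every bin nearly the same sum, and the 21 cluster bins all had a sum of 1521.18 or 1521.19 against a median of 1521.19, so coverage can be seen only in the recovered contacts. The map held 1955524 contacts between different bins and 2884 with both ends in a bin. The median over kept bins was 1588 contacts with other chromosomes (trans contacts). Intervals below are exact 95% Poisson intervals of recovered over expected contacts, where the expected number multiplies a factor of each bin, set so that every bin keeps its trans total; they cover counting error only, since copies made by PCR are not independent molecules.

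The promoters of Olfr1157 and Olfr1445 are shown as examples of array sequence that holds the HindIII site on which the assay depends. Each comes from the first gene of its run, by coordinate, with that site in its promoter. Most Olfr promoters lack the site (71 of 948 hold it), so the examples are not typical. The run is the longest on its chromosome with no other protein-coding gene between its Olfr genes. The chromosomes are 2, where coverage of the clusters was lowest, and 19, where it was highest. Capitals mark the HindIII site AAGCTT. The sequences are from RefSeq on GRCm38.p6, 250 bases before to 50 after the gene start, read 5′ to 3′ on the gene's strand. Olfr1157 lies on the minus strand at chr2:87968208-87968507, in a run of 123 Olfr genes, and Olfr1445 on the plus strand at chr19:12883633-12883932, in a run of 41. These positions are of another build than the map and were not used to place bins.
Olfr1157: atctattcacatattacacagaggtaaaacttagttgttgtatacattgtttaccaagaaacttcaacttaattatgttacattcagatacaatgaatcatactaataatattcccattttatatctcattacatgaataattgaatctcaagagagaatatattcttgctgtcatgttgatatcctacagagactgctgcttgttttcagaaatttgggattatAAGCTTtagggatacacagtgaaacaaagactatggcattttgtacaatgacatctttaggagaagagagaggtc
Olfr1445: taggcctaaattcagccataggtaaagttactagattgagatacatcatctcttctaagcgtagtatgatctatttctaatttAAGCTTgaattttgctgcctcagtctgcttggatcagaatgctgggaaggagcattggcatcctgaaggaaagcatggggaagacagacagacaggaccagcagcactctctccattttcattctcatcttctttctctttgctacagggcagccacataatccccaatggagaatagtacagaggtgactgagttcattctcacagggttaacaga
The Olfr1157 promoter has a G+C content of 31% and carries its site from position 226, counted from 1 at the 5′ end. The Olfr1445 promoter has 43% G+C and carries its site from position 84. Over all Olfr promoters of the chromosome the median G+C was 32.7% on chromosome 2 and 35.3% on chromosome 19. The 43% of Olfr1445 lies near the 95th percentile of chromosome 19 (43.1%), so the 2 examples overstate the difference between these chromosomes.

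By symbol, RefSeq holds 1110 protein-coding Olfr genes, of which 913 (82.3%) lie on the 8 chromosomes of the clusters. Chromosome 2 has the most with 287, in runs of up to 123 and 93 genes with no other protein-coding gene between. Chromosome 7 follows with 239, and its longest run is 42. Chromosome 9 has 130 and chromosome 10 has 68, with runs of up to 40 and 50. Chromosome 19 has 63, chromosome 17 has 51, chromosome 14 has 39 and chromosome 16 has 36. Chromosome 11, with 83 Olfr genes and a longest run of 15, is not among the clusters, while chromosome 14, with a longest run of 14, is. Olfr promoters are poor in G+C, with a median of 35% over 948 promoters of 944 genes against 53.3% over 31903 promoters of other genes. They hold AAGCTT, a palindrome that reads alike on both strands, about as often as promoters in general, in 71 of 948 (7.49%) against 7.45% of all 32851 promoters of this length. By chromosome the share ranged from 2.78% (1 of 36) on chromosome 17 to 11.8% (13 of 110) on chromosome 9, with 6.94% on chromosome 2 and 6.78% on chromosome 19. The number of HindIII sites or mappable bases per bin was not computed, because no mm9 sequence was used here.

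Cluster bins were sparsely covered, and those of chromosome 2 most of all. The 5 bins of the large chromosome 2 cluster held 465, 403, 129, 298 and 29 trans contacts from the low to the high coordinate. These are 30.7%, 26.6%, 8.52%, 19.7% and 1.92% of the median bin of chromosome 2. The last of them, chr2:89000001-90000000, had the fewest of the 178 bins of chromosome 2 with a value. The small chromosome 2 cluster had 340 contacts, or 22.5% of that median. The single bin of chromosome 17 held 471 contacts, 32.1% of its chromosome's median.

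The other clusters were closer to their chromosomes. The 6 bins of the chromosome 7 cluster held 962, 1453, 1175, 521, 1061 and 1493 contacts, from 34.9% of the chromosome 7 median at chr7:113000001-114000000 to 100% at the last bin. Coverage was lowest in the fourth bin, and the second and last bins reached nearly the level of the chromosome. The chromosome 9 bins held 1326 and 1069 contacts (84.5% and 68.2%), the chromosome 10 bin 1291 (74.9%), the chromosome 14 bin 871 (63.7%), and the chromosome 16 bins 1476 and 1116 (88.0% and 66.6%). The chromosome 19 cluster was the best covered, with 1720 and 1514 contacts, 101% and 88.6% of its median.

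Over the 21 cluster bins the median was 66.6% of the chromosome's median bin (mean 58.3%, SD 31.7 over bins), against a mean of 94.3% (SD 29.9) over 2392 autosomal bins outside the clusters. The coverage minimum was 543.5 listed partner bins on other chromosomes, 50% of the median of 1087. Below it fell 8 of the 21 cluster bins, or 38.1% (exact binomial interval 18.1 to 61.6%), namely all 6 of chromosome 2, the fourth of chromosome 7 and that of chromosome 17. The share among the autosomal bins outside the clusters was 7.27%, and it was 9.14% (84 of 919) on the 8 chromosomes of the clusters. Of the 28 bins of chromosome 2 below the minimum, 6 were cluster bins. Bins of 1 cluster are neighbours and are not independent of each other, so the interval is too narrow. G+C, site density, repeats and sequence differences between the strains were not measured per bin, and their part in the low coverage was not tested.

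Each cluster was set beside every window of its length on its chromosome that overlapped no cluster and had a value in every bin. Windows with an empty bin did not enter these counts. For the large chromosome 2 cluster, with 1324 contacts in all, 0 of 156 windows had fewer; the window median was 7546, and the lowest window, from 41 Mb, had 1990. Fewer contacts than in the cluster were found in 8 of 172 windows for the small chromosome 2 cluster and 6 of 92 for chromosome 17. For chromosome 10 it was 10 of 126, for chromosome 16 it was 13 of 92 and for chromosome 9 it was 19 of 118. Chromosome 7 had 23 of 117 such windows, chromosome 14 had 24 of 121 and chromosome 19 had 26 of 55. The clusters of chromosomes 7, 9, 10 and 16 held 72.0%, 76.4%, 74.8% and 76.9% of their window medians, that of chromosome 14 held 63.4%, and that of chromosome 19 held 96.0%.

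**Figure D1:**
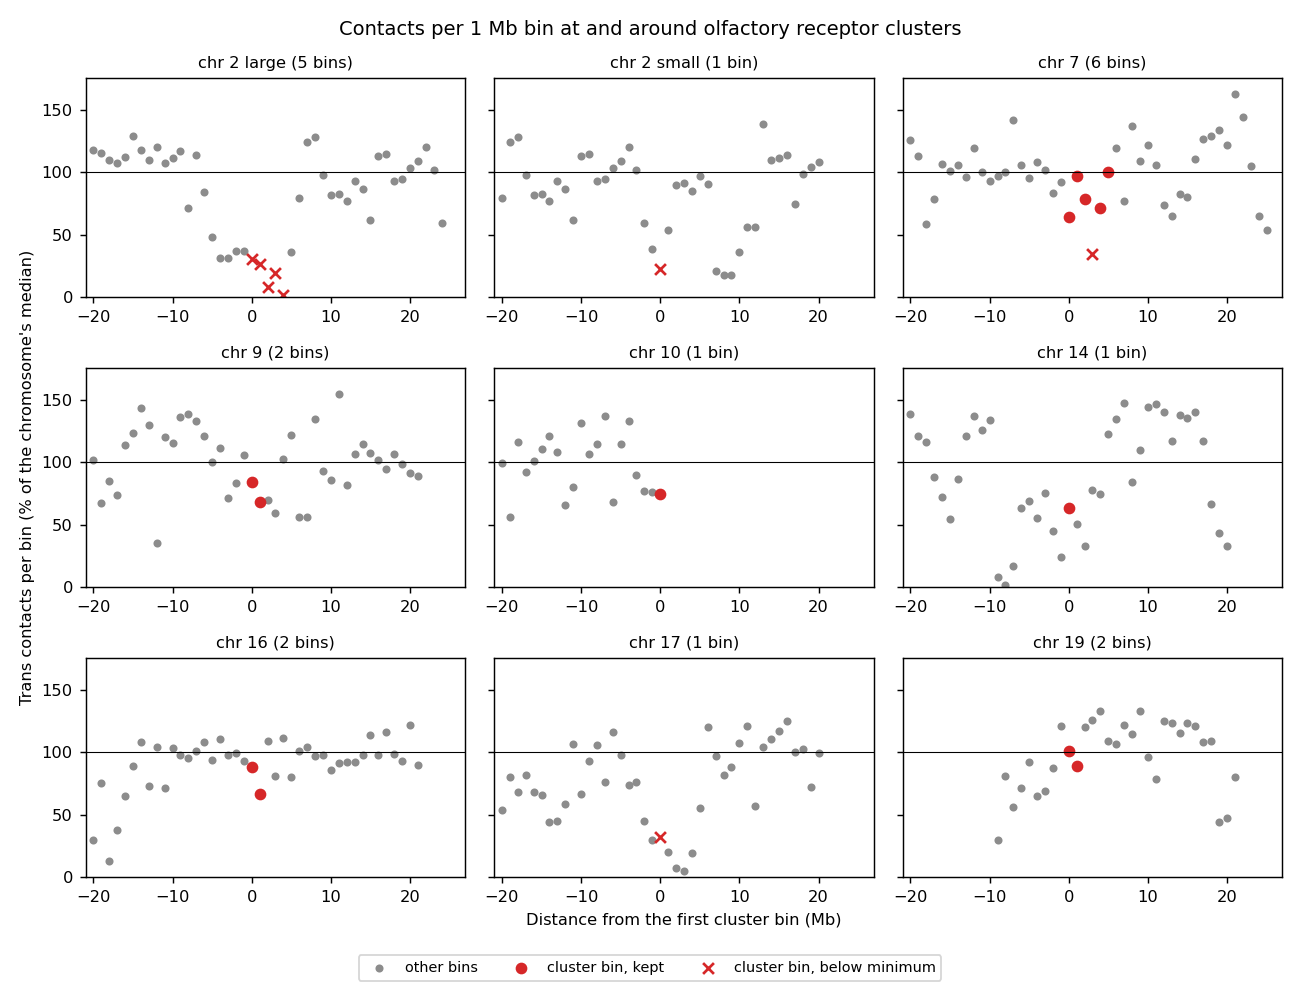
Trans contacts per 1 Mb bin, in percent of the median bin of the chromosome, against the distance in Mb from the first bin of each cluster; red dots are cluster bins above the coverage minimum, red crosses cluster bins below it, gray dots other bins, and the line marks 100%. The crosses of the large chromosome 2 cluster lie between 1.92% and 30.7%, in a trough that the gray bins beside them share, while the chromosome 19 bins lie at 101% and 88.6%.

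Low coverage was not limited to the cluster bins. Bins 1 to 2 Mb from a cluster edge had a median of 76.6% of their chromosome's median, with 11 of 34 below the minimum. At 3 to 5 Mb the median was 97.3% (4 of 51 below), at 6 to 10 Mb 96.4% (8 of 84) and at 11 to 20 Mb 103.5% (8 of 159). On chromosome 2 the bins at 82 to 84 Mb, before the large cluster, had 31.5%, 37.1% and 36.8%, and that after it, at 90 Mb, had 36.2%. The bins at 91 and 92 Mb were back at 79.6% and 124%. On chromosome 17 the bins at 38, 39 and 40 Mb had 19.8%, 7.76% and 4.90%, less than the cluster bin before them.

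Because balancing lifts each bin to the same sum, a contact in a poorly covered bin is worth more signal. In chr2:89000001-90000000 a contact was worth 53.3 times the median over bins. The balanced signal of the chromosome 2 and 17 clusters therefore rests on few contacts. Contacts were read first from the 13 bins that passed the minimum, in 6 clusters, and then from all 21 bins, a choice made after the coverage was seen.

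Clusters on different chromosomes met about as often as their coverage predicts. The 13 kept bins form 65 pairs on different chromosomes, with 33 contacts against 29.4 expected, a ratio of 1.12 (0.772 to 1.58); the balanced signal gave 1.14. All 21 bins form 177 pairs, with 42 contacts against 41.5 expected, a ratio of 1.01 (0.730 to 1.37). There the balanced signal gave 0.754, so the 2 readings lay on opposite sides of 1, both within the interval. A shift inside these intervals could not be detected at this depth.

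The chromosome 7 cluster took part in 26 of the 33 contacts, where 18.0 were expected, a ratio of 1.44 (0.944 to 2.12). Without it the other 5 clusters had 7 contacts with each other against 11.4 expected, 0.613 (0.246 to 1.26). Neither interval leaves out 1. Of the 16 windows on chromosome 7 of the same length and number of kept bins, 1 had a higher ratio, but many of the 16 share bins. With all bins the cluster had 30 contacts against 23.6 expected, 1.27 (0.858 to 1.81), and 1 of 87 windows was higher. The balanced signal of the cluster was 1.54 with kept bins and 0.927 with all bins, on the other side of 1.

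None of the 6 clusters had an interval off 1. Among the windows of the same lengths and numbers of kept bins on their chromosomes, pooled, 1.45% had an interval above 1 and 1.24% below. The chromosome 16 cluster had 13 contacts with the others against 10.1 expected, 1.29 (0.688 to 2.21), with 11 of 81 windows higher. For the chromosome 14 cluster it was 5 against 3.82, 1.31 (0.425 to 3.05), with 21 of 105 windows higher. The remaining ratios were below 1. Chromosome 9 had 8 contacts against 9.50, 0.842 (0.363 to 1.66; 80 of 107 windows higher), and chromosome 10 had 5 against 5.60, 0.893 (0.290 to 2.08; 75 of 125). Chromosome 19 had 9 against 11.9, 0.759 (0.347 to 1.44; 43 of 50).

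The clusters that failed the minimum had almost no contacts to count. The large chromosome 2 cluster, the largest array of the family, had 3 contacts with clusters on other chromosomes against 6.67 expected, 0.450 (0.0928 to 1.32). All 113 of its windows had a higher ratio, but these windows have more contacts and so scatter less. The small chromosome 2 cluster had 1 contact against 1.68, 0.595 (0.0151 to 3.32), and the chromosome 17 cluster 3 against 2.43, 1.23 (0.254 to 3.61).

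**Figure D2:**
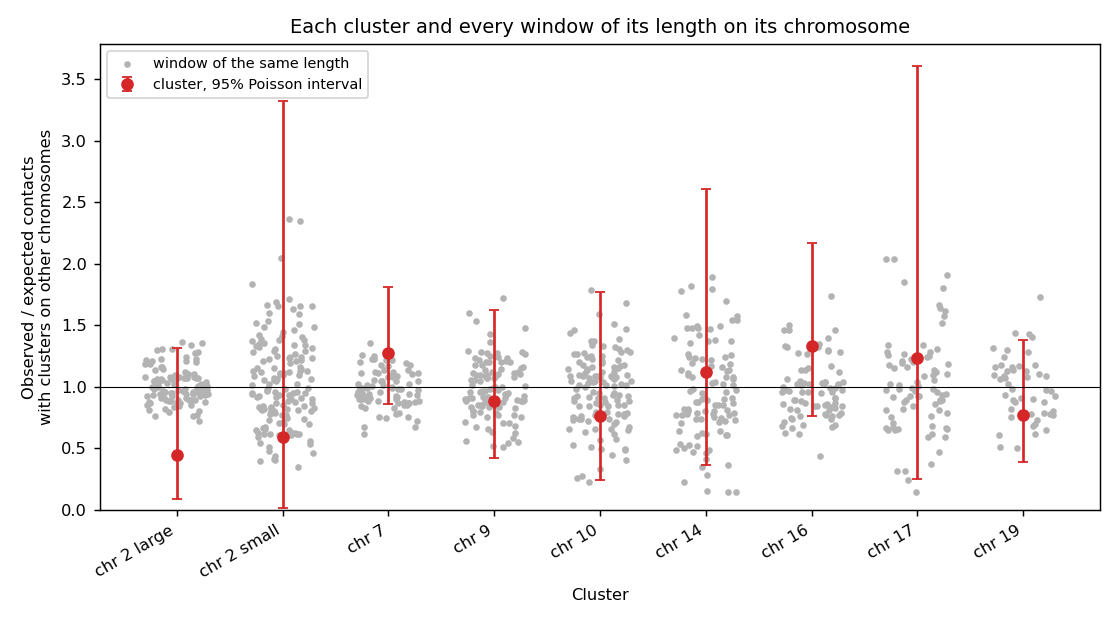
Observed over expected contacts with the clusters on other chromosomes, for each of the 9 clusters (red, with exact 95% Poisson intervals, all 21 bins) and for every window of the same length and number of kept bins on its chromosome (gray, spread sideways for legibility). All 9 intervals cross 1; the large chromosome 2 cluster at 0.450 lies below its 113 windows, and the chromosome 7 cluster at 1.27 lies below 1 of its 87.

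Among the 15 pairs of clusters with kept bins, 1 had an interval above 1 and 0 below. Among all pairs of windows of these lengths and numbers of kept bins on these chromosomes, 1.8% had an interval above 1 and 0.149% below. The pair was chromosome 7 with chromosome 14, with 5 contacts against 1.52 expected, 3.29 (1.07 to 7.69). A higher ratio was found in 8 of 1680 pairs of windows. Next came chromosome 7 with chromosome 16, with 8 contacts against 4.48, 1.79 (0.771 to 3.52), and chromosome 7 with chromosome 9, with 6 against 4.18, 1.43 (0.526 to 3.12). The 3 highest pairs all involve chromosome 7.

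At the low end, 5 of the 15 pairs had no contact at all. The largest expected number among them was that of chromosome 9 with chromosome 19, with 0 contacts against 2.13 expected, which allows a ratio of up to 1.73. Chromosome 14 with chromosome 19 had 0 against 0.772 and chromosome 14 with chromosome 16 had 0 against 0.626. A zero at these numbers was within reach of counting error.

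With all 21 bins there were 35 pairs of clusters, of which 0 had an interval above and 0 below 1, while 1.79% and 0.51% of window pairs had; 19 pairs had no contact. The chromosome 7 and 14 pair kept its 5 contacts and the addition of the poorly covered chromosome 7 bin brought it to 3.04 (0.988 to 7.10), so its call depends on that bin. Chromosome 7 with chromosome 16 had 10 contacts against 4.86, 2.06 (0.986 to 3.78). The highest ratio of all, 5.68 (0.144 to 31.7) between the large chromosome 2 and the chromosome 17 clusters, rests on 1 contact where 0.176 was expected.

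**Figure D3:**
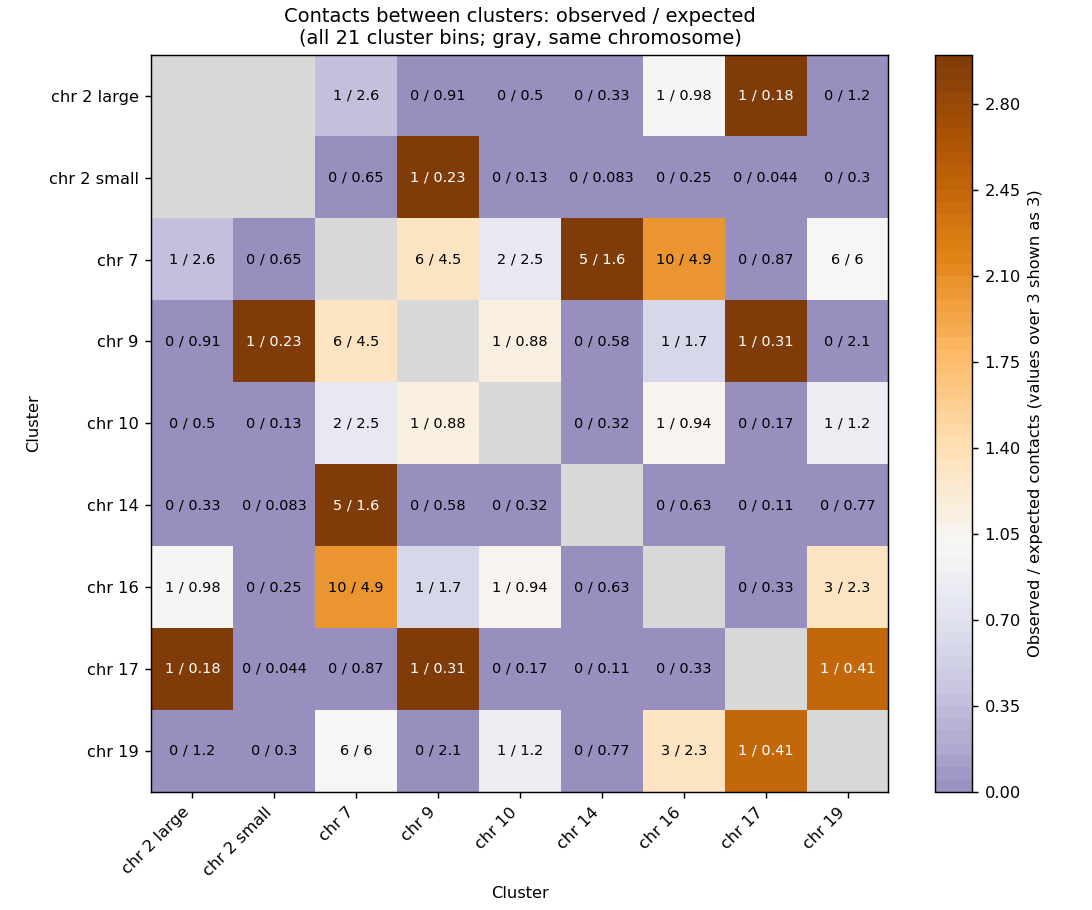
Contacts between each pair of clusters on different chromosomes, over all 21 bins; each cell prints observed / expected contacts and its colour gives their ratio, from violet (none) over white (1) to brown (3 or more), with pairs on the same chromosome in gray. Of the 35 pairs 19 have no contact, and only the chromosome 7 row and column have expected numbers above 2.5.

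No single pair of bins between clusters was called. At expected numbers this small and with adjustment over the whole map, only a large excess could be called, so smaller ones stay undecided. A 1-sided Poisson test with Benjamini-Hochberg adjustment over all 2594953 pairs of kept bins on different chromosomes called 0 of the 65 cluster pairs, beside 7.71e-05% (2 pairs) of the map. At an unadjusted p under 0.05 there was 1 of 65 (1.54%), against 2.76% in the map. A contact was seen in 27 of the 65 (41.5%), against 47.3% of all pairs, at a mean expected number of 0.453 against 0.684. The lowest p, 0.0063 (adjusted 1), belonged to chr7:115000001-116000000 with chr14:51000001-52000000, with 3 contacts against 0.368. The next 4 pairs had 2 contacts each and joined chromosome 7 bins with chromosome 10 (chr10:129000001-129993255), chromosome 9 (chr9:38000001-39000000) and both bins of chromosome 16.

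The 13 cluster bins together met low-scoring bins more often, and high-scoring bins less often, than their coverage predicts. All other bins were ordered by a score, the first eigenvector of their trans profiles, made without any cluster bin, with its sign set so that chromosomes 11 and 19, which are rich in genes, had means above 0 (0.363 and 0.309). Such a score separates regions that prefer contacts with their own kind. Among the other bins, the lowest quintile met itself at 1.10 times the expected contacts, the highest quintile met itself at 1.20 times, and the 2 met each other at 0.869 times. The 13 cluster bins met the lowest quintile at 1.06 (1.02 to 1.09) and the highest at 0.920 (0.886 to 0.954). From the second to the fourth quintile the ratios were 1.04 (1.01 to 1.08), 1.01 (0.972 to 1.04) and 0.974 (0.941 to 1.01), a steady decline. With no filter on bins the ratio with the lowest quintile was 1.03 (0.994 to 1.06) and no longer past 1. With listed pairs alone, which drops every pair without a contact, the ratio with the highest quintile turned to 1.15 (1.11 to 1.19).

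By cluster, the ratio with the highest quintile was below 1 in 6 of 6, from 0.876 to 0.980. The share of windows with a ratio below 1 is not given here, so this count cannot be called particular to the clusters. The interval lay below 1 in 2 of 6, chromosome 7 at 0.915 (0.861 to 0.972) and chromosome 19 at 0.878 (0.804 to 0.956), against 21.1% of windows. With the lowest quintile the interval lay above 1 in 2 of 6, chromosome 14 at 1.17 (1.01 to 1.35) and chromosome 19 at 1.10 (1.02 to 1.19), against 10.3% of windows. The chromosome 19 cluster was the sole one past 1 at both ends. Chromosome 16 was nearest to even, at 0.977 (0.890 to 1.07) with the lowest quintile and 0.980 (0.894 to 1.07) with the highest. With 6 clusters, these shares were not tested against those of the windows. The shares of windows pool those of all 6 clusters, 16 for chromosome 7 and 125 for chromosome 10. Longer windows hold more contacts and have narrower intervals, so a pooled share is not matched to each cluster. Shares of windows given below are pooled over clusters in the same way.

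The clusters' own scores are computed from the same contacts and add no further evidence. Of the 13 bins, 7 had a score in the range of the lowest quintile: 4 of chromosome 7, the first of chromosome 9, that of chromosome 10 and the first of chromosome 19. The lowest was chr7:115000001-116000000, with 9.66% of bins lower. A further 4 were in the second quintile, the first bin of chromosome 16 in the third, and the second bin of chromosome 9 in the fourth with 60.8% of bins lower. On their own chromosomes the clusters were not extreme, with 9 of 50 windows lower on chromosome 19, 16 of 125 on chromosome 10 and 7 of 16 on chromosome 7.

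**Figure D4:**
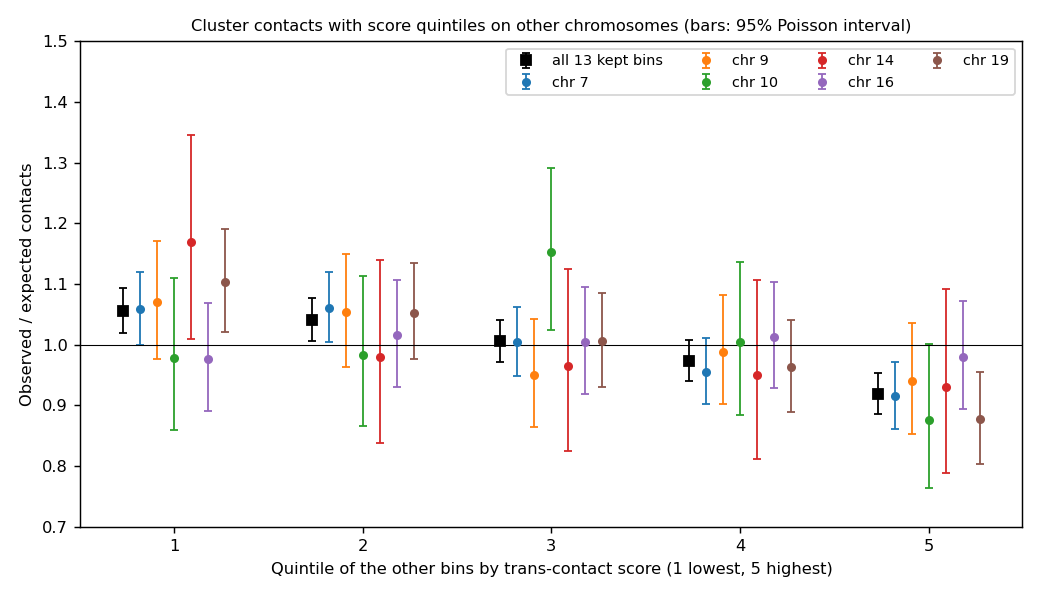
Observed over expected contacts of the clusters with the 5 quintiles of other bins by score, on other chromosomes, for all 13 kept bins (black squares) and for each of the 6 clusters (coloured dots), with exact 95% Poisson intervals. The black squares fall from 1.06 in the lowest quintile to 0.920 in the highest. All 6 coloured dots in the highest quintile lie below 1, a count without the share of windows beside it.

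Of the clusters below the minimum, that of chromosome 17 lay on the same sides of 1 as the kept bins together. The large chromosome 2 cluster lay on the other side with both the lowest and the highest quintile, the small one with the lowest alone. The large cluster had 0.970 (0.853 to 1.10) with the lowest quintile and 1.10 (0.977 to 1.24) with the highest. The small one had 0.720 (0.527 to 0.961) with the lowest and 0.949 (0.724 to 1.22) with the highest. The chromosome 17 cluster had 1.22 (0.996 to 1.47) with the lowest and 0.799 (0.623 to 1.01) with the highest. With all 21 bins together the ratios were 1.04 (1.01 to 1.08) for the lowest quintile and 0.934 (0.903 to 0.966) for the highest. The balanced signal of the same 21 bins gave 0.963 and 0.979, so the value for the lowest quintile then lay on the other side of 1. Whether the chromosome 2 clusters differ from the others was not tested.

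For the 13 bins together the ratio ranged from 0.952 (0.891 to 1.02) with chromosome 4 to 1.05 (0.973 to 1.13) with chromosome 18, and the intervals of all 20 chromosomes held 1. By cluster, 2 of 114 intervals lay above 1 and 2 below, against 2.5% and 2.66% of the values of windows. The chromosome 9 cluster had 1.21 (1.03 to 1.42) with chromosome 7, 1.22 (1.02 to 1.45) with chromosome 12 and 0.840 (0.701 to 0.9993) with chromosome 6. The chromosome 16 cluster had 0.814 (0.670 to 0.980) with chromosome 7, counted outside the cluster bins. Contacts with the 10 Mb at the low-coordinate ends of other chromosomes, where mouse chromosomes have their centromere, were at 1.03 (0.965 to 1.10), and with the high-coordinate ends at 1.02 (0.972 to 1.08). Among the 12 values by cluster and end, 1 interval lay above 1 and 0 below, against 3.72% and 4.24% of the values of windows. It was that of chromosome 9 with the low ends, with 152 contacts against 119.6, 1.27 (1.08 to 1.49). The chromosome 10 cluster, which is itself the last bin of its chromosome, had 1.15 (0.963 to 1.37) with other high ends.

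No bin outside the clusters was called as a partner of the clusters together, 0 of 2328 (0%), by the 1-sided Poisson test with Benjamini-Hochberg adjustment over these bins; 77 (3.31%) had an unadjusted p under 0.05. The lowest p was at chr17:65000001-66000000, with 23 contacts against 9.95 expected (adjusted p = 0.486 by the exact Poisson test). The next were chrX:68000001-69000000 with 18 contacts against 7.24, chr11:17000001-18000000 with 19 against 7.97, chr2:113000001-114000000 with 16 against 6.40 and chr4:90000001-91000000 with 11 against 3.86.

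Sequence beside the clusters met the other clusters at the expected rate too. Flanking bins at 1 to 2 Mb had 0.990 (0.823 to 1.18), at 3 to 5 Mb 0.9986 (0.886 to 1.12), at 6 to 10 Mb 1.05 (0.965 to 1.15) and at 11 to 20 Mb 1.04 (0.974 to 1.11). Profiles of contacts over 10 Mb blocks of other chromosomes were compared between clusters. Over 15 pairs of clusters and 227 to 237 blocks, Pearson's r had a median of -0.01 and a range of -0.137 to 0.109. The blocks share the depth of their bins, and at these counts r near 0 cannot show that profiles differ. None of the 15 was above the 95th percentile of its window pairs, and with all bins 2 of 35 were. Chromosome 14 with chromosome 19, at -0.137, lay below the 5th percentile of its window pairs (-0.108). With all bins that pair was at -0.115 (5th percentile -0.112). The small chromosome 2 cluster with chromosome 10 was at -0.176 (5th percentile -0.115). By definition 5% of window pairs lie past each of these limits.

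Contacts within clusters came mostly from chromosome 7. Neighbouring bins 1 Mb apart had 9 contacts against 2.90 expected from trans contacts, 3.10 (1.42 to 5.89). Autosomal neighbours in general had 1.47 (1.41 to 1.53) on this scale, a value inside the interval of the clusters. Of the 9 contacts, 6 lay in the chromosome 7 cluster, against 1.35 expected, 4.45 (1.63 to 9.68). There 1 of 6 comparable windows was higher. The chromosome 16 pair had 2 contacts, the chromosome 9 pair 1 and the chromosome 19 pair 0. An interval above 1 was seen in 1 of 4 clusters, against 5.33% of windows. At 2 to 5 Mb within the chromosome 7 cluster there were 0, 1, 1 and 0 contacts, too few to read. The large and small chromosome 2 clusters, 22 Mb apart, had 0 contacts where 0.130 was expected.

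Contacts with both ends in a bin were counted per cluster bin and set against the number expected at the autosomal mean, a test chosen after the values were seen. The 5 kept bins of chromosome 7 held 6, 8, 1, 1 and 5 such contacts, where 0.437, 0.986, 0.648, 0.530 and 1.04 were expected. The first and second, chr7:110000001-111000000 and chr7:111000001-112000000, were past the threshold at 13.7 and 8.12 times the expected number (exact 1-sided Poisson test with Benjamini-Hochberg adjustment over 2231 autosomal bins, adjusted p = 0.000374 and 0.00048). The last, at 4.81 times, had an adjusted p of 0.137. Thus 2 of 13 cluster bins were called, against 61 of all 2231 (2.73%).

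High numbers within a bin were also found on chromosome 7 outside the cluster. Of the 61 bins called, 14 lay on chromosome 7, and its 123 kept bins outside the cluster had 227 contacts against 142 expected, 1.60 (1.40 to 1.82). The cluster as a whole had 21 against 3.64, 5.77 (3.57 to 8.82), and 6 of 16 windows of its length were higher. The other clusters together had 9 contacts against 6.29, 1.43 (0.654 to 2.72), and their bins held at most 2. Among the clusters below the minimum, those of chromosome 2 had no contact within a bin, and the chromosome 17 bin had 2. On the scale of trans contacts the chromosome 17 bin was expected to hold 0.030, a ratio of 66.7 (8.08 to 241), higher than the 18.8 (11.6 to 28.7) of the kept chromosome 7 bins, while all autosomes had 3.26. The chromosome 17 ratio rests on 2 contacts, and its difference from chromosome 7 was not tested.

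**Figure D5:**
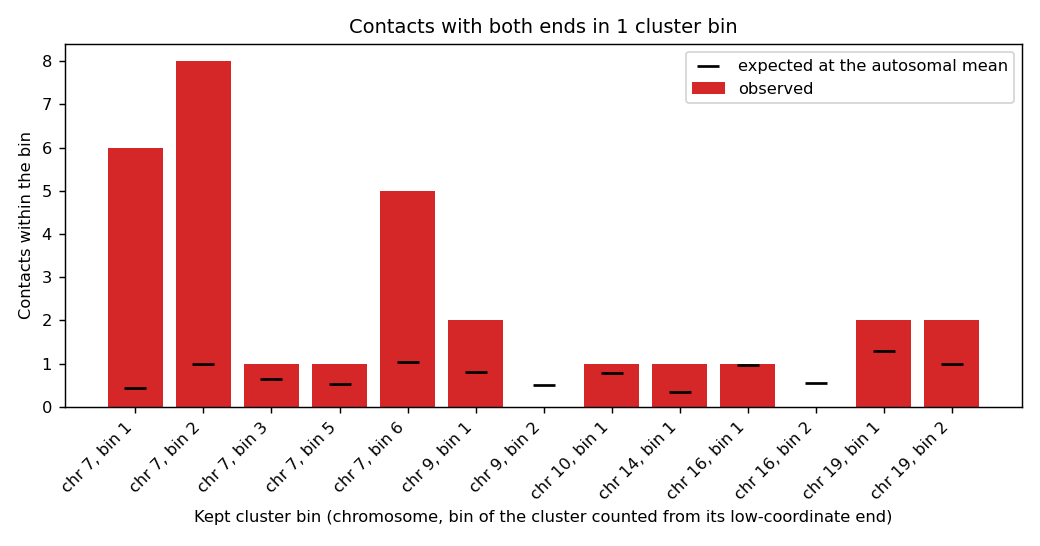
Contacts with both ends in the same 1 Mb bin, for the 13 kept cluster bins (red bars), and the number expected from each bin's coverage at the autosomal mean (black dashes); bins of a cluster are counted from its low-coordinate end. Bins 1, 2 and 6 of chromosome 7 hold 6, 8 and 5 contacts, and no bin of another cluster holds more than 2.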

How the data were processed

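Hi-C libraries of fibroblasts from 2 embryos, with 3 technical replicates each, were cut with HindIII per the labels' protocols. HiC-Pro 2.7.8, bedtools and the build mm9 appear in the submitters' processing notes, with no role. The authors deposited 1 pooled table of balanced contact signal, with a value per pair of 1 Mb bins, and a key of bin positions. The aligner, the read filters and the libraries pooled were not given in the sources used here.

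Whole contacts were recovered by dividing each deposited signal by its bin factors (tolerance 0.01). Bins with fewer than 543.5 listed trans partners were left out, which kept 2341 of 2573 bins with a value, and unlisted pairs counted as 0. The kept bins held 1776055 trans contacts, which sets the counting error. Windows of the length of a cluster on its chromosome that overlapped no cluster were listed exhaustively. For coverage they had to hold a value in every bin. For contacts, scores and profiles they had to have the same number of kept bins as the cluster. Single bins and pairs were tested with a 1-sided Poisson test. With 1 pooled map no test compared samples, and replicate spread is unknown. The text names all 9 clusters, the 3 highest and 3 lowest pairs of clusters, the 5 bin pairs and the 5 outside bins of lowest p, and the highest and lowest partner chromosome. The members were set by position alone, but members, windows and named items were all chosen with earlier results of these data known. Alternatives were the balanced signal, no bin filter, a stricter one at 80%, only listed pairs, values capped at the 99.9th percentile, other cluster edges, other score and end definitions, other block sizes and each cluster left out. Gene runs and promoters came from RefSeq on GRCm38.p6, matched by symbol, and gave no mm9 coordinate. Recovery of contacts, the pooled ratio and the pair test were tried on Poisson counts drawn from the fitted expected numbers. There contacts between clusters and some single pairs were raised, those between clusters by more than the pooled ratios found here. That trial cannot show how the steps behave with smaller shifts or with more than counting error. Software was scipy 1.17.1, numpy 2.4.6, pandas 2.3.3 and matplotlib 3.10.9 under Python 3.11.15.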

Additional observations from a re-analysis of the deposited data

How the results depend on the processing

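Of 130 alternatives over 23 results, 119 were counted as unchanged. For a ratio this meant a value inside the main interval, with no loss of its call. Where that interval held 1 the direction could still turn. The chromosome 10 cluster went from 0.893 to 1.21 with windows widened by 1 bin. Counts had to stay within a set fold, and coverage and profile values within the SD over bins or pairs. Leaving out clusters at a chromosome end removed chromosome 10 alone and so repeated another alternative. The ratio between clusters on different chromosomes fell to 0.613 without the chromosome 7 cluster; leaving out each of the 6 clusters with kept bins gave 0.613 to 1.37. The number of pairs of clusters with an interval above 1, which was 1, was 0 with no bin filter, with the 80% filter, with windows widened by 1 bin and with all cluster bins kept (the last chosen after seeing the data). The share of cluster bins below the minimum was 61.9% at the 80% filter, which kept 8 cluster bins and none of the chromosome 14 cluster. Contacts with the lowest score quintile were 1.03 with no bin filter, no longer past 1, and 1.20 with listed pairs alone. Contacts with the highest quintile turned to 1.15 with listed pairs alone, which by construction drops every pair without a contact. Neighbours 1 Mb apart in a cluster gave 1.71 at the 80% filter, not past 1. Contacts within a bin, 9.84 times those expected from trans contacts, fell to 4.66 without the chromosome 7 cluster, a setting chosen after seeing the data; all autosomes had 3.26 on this scale, inside the interval of the latter (2.13 to 8.85). With no filter there is no minimum, so that setting gives no coverage value. No paired analysis was possible because all libraries form 1 group and were deposited as 1 pooled map. With 33 contacts between kept clusters, depth limits every statement on single pairs.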
